A study of Mus musculus with 6 samples.

Results

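The regions described here are ESRRB regions called at 48 h after 2iL withdrawal and in neither the naive state nor at 96 h. ESRRB ChIP-seq, which sequences the DNA that an anti-ESRRB antibody brings down from fixed chromatin, was done in E14 mouse embryonic stem cells, an established line, in 2iL and at 48 h and 96 h of 2iL withdrawal, with 1 antibody library per condition. 2iL is N2B27 medium with LIF, 3 µM of the GSK3 inhibitor CHIR99021 and 1 µM of the MEK inhibitor PD0325901, and all cells had been grown in it before withdrawal, when it was replaced by N2B27 alone. The regions were chosen by their calls: the intervals of the 3 peak lists were pooled, those overlapping by at least 1 bp were merged, and merged regions that held 48 h intervals only were kept. This gave 2888 regions of 18634 merged regions (15.5%), or 26.3% of the 10970 regions of the 48 h list. With the 3 lists cut to equal length by fold, the count was 1690. Another 6277 merged regions were called only in 2iL, 1001 only at 96 h and 4260 in all 3 libraries. A further 2611 were called in 2iL and at 48 h but not at 96 h. At 48 h and 96 h but not in 2iL there were 1103, and in 2iL and at 96 h but not at 48 h 494. Each condition is 1 library with no replicate, so no test between conditions was possible, and the values describe these libraries.

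ESRRB is an orphan nuclear receptor that can bind DNA as a monomer at the estrogen-related receptor element (ERRE), in which a short stretch precedes the nuclear receptor core AGGTCA. In naive embryonic stem cells it acts beside OCT4, SOX2, NANOG and KLF factors, and its own gene is switched off as cells leave the naive state. When 2iL is taken away, cells pass through a formative state, in which genes such as Otx2, Pou3f1 and Fgf5 come on, before they commit to a lineage. Receptors of the ERR family also bind genes of mitochondrial energy metabolism in many tissues.

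Promoters hold the sequences that could be read for these regions: RefSeq windows (build GRCm38.p6, which mm10 follows) run from 250 bases before to 50 bases after a gene's start. Regions called only at 48 h overlapped 145 such windows, of 128 protein-coding genes, and in 27 of them the summit, the base of highest enrichment, lay inside the window. The full ERRE, TCAAGGTCA, searched on both strands, was in 2 of the 145 windows (1.38%, 95% interval 0.167 to 4.89), against 1.85% (1.02 to 3.09) of the 756 windows under other 48 h regions and 0.334% of all 21263 windows. The shorter AAGGTCA, which the full ERRE contains, was in 11 (7.59%, 3.85 to 13.2), against 11.0% (8.84 to 13.4) under other 48 h regions and 4.08% of all windows. Of the 11, 2 are windows of Steap2 that hold the same site. The intervals treat windows as separate, though windows of 1 gene can overlap. The octamer ATGCAAAT, the site of OCT4 and other POU factors, was in 6 (4.14%, 1.53 to 8.79), against 1.19% (0.546 to 2.25) under other 48 h regions and 1.66% of all windows. Other motifs were searched in the same windows too, and their shares are not given here. Of the octamer windows, the summit lay inside that of Prrg4 only, and the other summits lay 282 to 728 bases from the start. A match is a string of letters in a window and does not show that a factor was bound there.

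Both promoters with the full ERRE, 2 with the short form close to the summit, 1 with the octamer and 1 with neither are shown so that the matches can be read in place. Each is a stretch from upstream of the start, 5′ to 3′ on the gene's strand, with the match in capitals. TGACCTTGA is the full ERRE read on the opposite strand.
Gjb1 (plus strand, chrX:101381964-101382064): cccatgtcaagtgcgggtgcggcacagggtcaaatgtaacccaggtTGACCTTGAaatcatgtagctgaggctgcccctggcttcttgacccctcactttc
Syt2 (plus strand, chr1:134646399-134646499): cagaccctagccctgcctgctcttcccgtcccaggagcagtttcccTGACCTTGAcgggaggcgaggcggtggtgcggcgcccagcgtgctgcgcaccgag
Gpatch2 (plus strand, chr1:187215261-187215361): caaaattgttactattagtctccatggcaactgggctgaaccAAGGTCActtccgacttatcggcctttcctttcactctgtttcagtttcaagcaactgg
Mrps15 (plus strand, chr4:126046756-126046856): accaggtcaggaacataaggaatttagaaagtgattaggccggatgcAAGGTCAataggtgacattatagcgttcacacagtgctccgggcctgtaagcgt
Prrg4 (minus strand, chr2:104849939-104850039): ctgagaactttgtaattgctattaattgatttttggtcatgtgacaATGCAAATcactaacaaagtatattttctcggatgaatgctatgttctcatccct
Arsa (minus strand, chr15:89477425-89477525): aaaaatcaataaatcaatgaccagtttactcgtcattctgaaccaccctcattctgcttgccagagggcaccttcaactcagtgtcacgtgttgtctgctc

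The region at Gjb1, which encodes the gap junction protein connexin 32, had 49 reads at its summit over a local background of 9.79 reads, a fold enrichment of 4.63. Its summit lay 16 bases before the start, and the full ERRE began 108 bases before it. At Syt2, a synaptotagmin gene of synaptic vesicles, 57 reads stood over a background of 20.7 (fold 2.68), the summit lay 118 bases before the start and the match began 167 bases before it. At Gpatch2 (fold 3.57) the match began 208 bases before the start and the summit lay 203 bases before it. At Mrps15, a mitochondrial ribosome gene (fold 2.75), the match began 125 bases before the start and the summit lay 117 bases before it. The octamer of Prrg4 (fold 2.64) began 143 bases before the start, with the summit 79 bases before it. At Arsa, the lysosomal arylsulfatase A gene, 74 reads over a background of 14.5 (fold 4.85) peaked 26 bases before the start in a window with neither ERRE form nor octamer. All 6 regions had folds below 5.56, the median of the other 48 h regions.

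The libraries differed in the lowest local background of their lists, called the floor here, which was 8.09 reads at 48 h, 1.60 times the 5.04 reads of 2iL and 1.38 times the 5.84 reads of 96 h. Each fold is over the background of its own library, and the read totals of the libraries are not known here. Absence from the 2iL and 96 h lists says that no peak was called, not that ESRRB was absent.

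Most regions called only at 48 h were weak. Their fold at 48 h ran from 1.29 to 12, with a median of 4.07 and quartiles of 3.42 and 4.84, while the other 8082 regions of 48 h reached 42.8 with a median of 5.56. The median summit held 50 reads over a background of 10.8, against 78 over 12.9 for the other 48 h regions. The background lay at the library's floor in 583 of them (20.2%), against 11.5% of the other 48 h regions. They were also narrower, with a median width of 808 bp against 1051.5 bp, and 27.3% held more than 1 summit against 35.7%. The authors' score was at its cap of 1000 in 375 (13.0%), against 56.1%. Low fold and few capped scores were not particular to 48 h. Regions called only at 96 h had a median fold of 3.78, against 4.82 for the whole 96 h list, and 8.59% at the cap against 44.1%. Regions called only in 2iL had a median of 5.19, against 5.88 for the whole 2iL list, and 23.0% at the cap against 40.5%. Since the same list's calls chose the regions, these values are a description and carry no test.

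The share of 48 h regions called nowhere else was smaller in the stronger bins of this list. The 48 h regions were split by fold into 5 bins of 2194. In the weakest bin, 1005 of 2194 were called only at 48 h (45.8%, 95% interval 43.7 to 47.9), and in the next bins 41.8%, 27.2% and 13.6%. In the strongest bin, with folds of at least 7.53, 71 were (3.24%, 2.54 to 4.06). The regions called at 48 h and 96 h but not in 2iL had a median 48 h fold of 4.95, and those called in all 3 libraries 6.77. For those called in 2iL and at 48 h but not at 96 h it was 4.64. The floors of the libraries differ beside this result. At the same fold over the floor of 2iL, the median −log10 p of the regions would be 9.44 in place of 16.3, and 1621 regions (56.1%) would lie below 10.1, the level that 95% of the 2iL regions exceed. Over the floor of 96 h the median would be 10.4, and 642 regions (22.2%) would lie below that library's level of 7.20. For these values the background of every region was set to the floor of the other library. At 48 h only 583 of the regions (20.2%) lay at the floor, and their median background was 10.8 reads. The fall in −log10 p is thus not from the difference of the floors alone. The part of the floors in the calls was not tested.

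**Figure D1:**
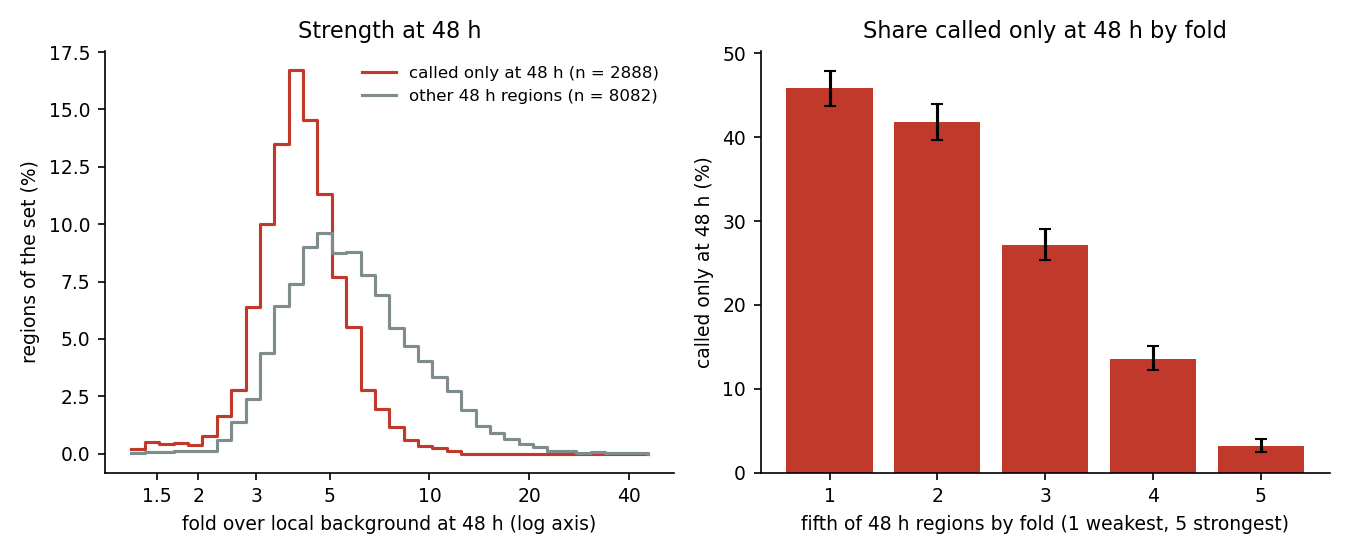
Left, share of regions (%) by fold over local background at 48 h (log axis), for the regions called only at 48 h and the other 48 h regions. Right, share of 48 h regions called nowhere else (%) in each of 5 bins by fold, with exact 95% intervals, from 45.8% in the weakest bin down to 3.24% in the strongest.

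The 20 strongest regions called only at 48 h had folds of 9.24 to 12, and 16 of them lay more than 10 kb from a known protein-coding gene start. The strongest (chromosome X, 51682822 to 51683915) lay 1.51 kb from Hs6st2, a heparan sulfate sulfotransferase gene, with 108 reads over a background of 8.09. It was not an isolated site: a 96 h region began 70 bp away and a 2iL region 132 bp away. It was the only one of the 20 with another region within 1 kb. The second, with 104 reads over 8.15 (chromosome 9, 61053013 to 61053711), lay 173 kb from Uaca and 57.9 kb from the nearest 2iL region. The third, with 128 reads over 10.3 (chromosome 10, 72956425 to 72957533), lay 139 kb from Pcdh15, a protocadherin gene of hair cells, with no 2iL region within 1610 kb and no 96 h region within 1560 kb.

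Of the other strongest regions, 7 lay inside protein-coding genes. Tnc, which encodes the matrix protein tenascin C, held a region of fold 11.0 (chromosome 4, 63979406 to 63980475), 420 kb from any 2iL or 96 h region. Hadhb, which encodes a subunit of the mitochondrial trifunctional protein of fatty acid oxidation, held one of fold 10.3 (chromosome 5, 30171955 to 30172976), 16.1 kb from a 2iL region. Nrxn3, a presynaptic adhesion gene, held one of fold 10.2 (chromosome 12, 89493869 to 89494468), and the olfactory receptor gene Olfr111 one of fold 11.1 (chromosome 17, 37535005 to 37535821). Bcas3 held one of fold 9.73 and Atp7a, a copper transporter gene, one of fold 9.46. Nkain2 held one of fold 9.64.

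The others lay outside protein-coding genes. The region with most reads, 197 over a background of 19.3 (fold 9.76, chromosome 4, 150685512 to 150686846), lay 34.0 kb from Slc45a1, a sugar transporter gene. A region 10.3 kb from Syt7, a calcium sensor of exocytosis (chromosome 19, 10377951 to 10378895), had 130 reads over 11.0, and one 887 kb from Ccdc85a had 134 over 11.0. Further regions lay nearest 1110032F04Rik (fold 11.3), Gm51581 (10.0), Gadl1 (9.96), Otud1 (9.68), Castor2 (9.52), Bcor (9.30) and Gm45618 (9.24). Reads in the 20 regions ran from 83 to 197 and backgrounds from 8.09 to 19.3.

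**Figure D2:**
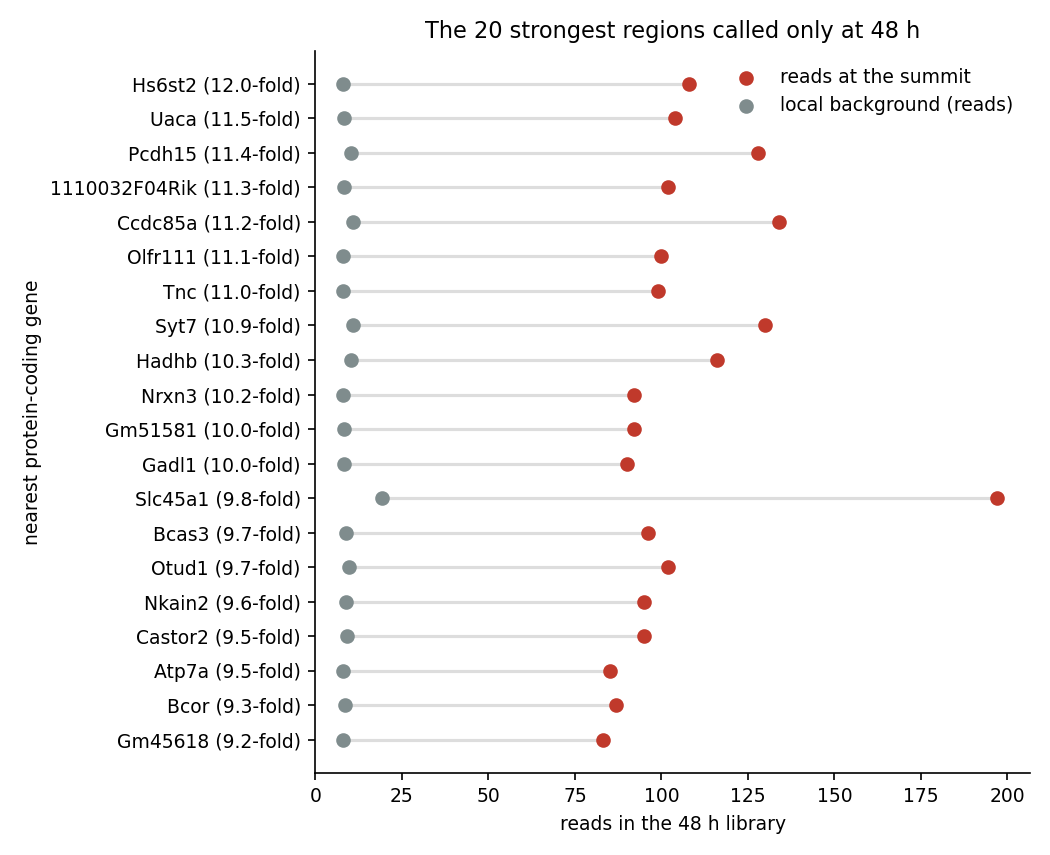
Reads at the summit and local background (reads) in the 48 h library for the 20 strongest regions called only at 48 h, listed by nearest protein-coding gene with the fold in brackets. Summits hold 83 to 197 reads over backgrounds of 8.09 to 19.3.

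The weakest regions were narrow intervals beside other regions. The 5 of lowest fold, 1.29 to 1.36, were 263 to 375 bp wide, held 15 to 24 reads over backgrounds of 11.0 to 17.8, and lay nearest Actr6, Foxp4, Igsf21, Bcl3 and Tle5. In each, a 2iL or 96 h region was 402 bp away or less. The highest summit had a q above 0.05 in 53 regions (1.84%), and 52 of the 53 lay within 1 kb of another region of the 48 h list. Among the other 2835 regions, 138 (4.87%) did. Either side of the overlap rule, the 5 regions with the shortest gaps lay 7 to 20 bp from a region of another list. The nearest, beside Marchf1 (chromosome 8, 65575119 to 65575426), had a fold of 1.43 and lay 7 bp from a 96 h region of fold 5.84, and another, inside Hspe1 (chromosome 1, 55088341 to 55089038, fold 3.07), lay 20 bp from a 2iL region of fold 5.03. The 48 h regions that just failed the rule overlapped other regions by 1 to 35 bp. Of those, a region near Lrig3 (chromosome 10, 125941012 to 125941924, fold 5.06) shared 1 bp with a 2iL region of fold 11.4.

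The share at gene ends was smaller for regions called only at 48 h than for other 48 h regions. For 217 of them the summit was 1 kb or less from an end of a protein-coding gene (7.51%, 95% interval 6.58 to 8.54), against 11.5% (10.8 to 12.2) of the other 48 h regions. With lists of equal length by fold the share was 4.67%. It was 13.2% (12.2 to 14.3) of 48 h regions called in all 3 libraries, 9.32% (8.61 to 10.1) of regions called only in 2iL and 13.4% (11.3 to 15.7) of those called only at 96 h. Regions called in 2iL and at 48 h but not at 96 h had 8.99% (7.93 to 10.2). That interval overlapped the one of the regions called only at 48 h. Within the 5 bins of fold, the share of the regions called only at 48 h was also below that of the other 48 h regions. In the weakest bin it was 13.5% (11.5 to 15.8) against 22.9% (20.5 to 25.4), and in the second 4.91% (3.60 to 6.51) against 12.5% (10.8 to 14.5). In the third it was 5.03% against 11.3% and in the fourth 1.68% against 9.49%, and in the strongest bin, which held 71 of the regions, the intervals overlapped, at 1.41% (0.0357 to 7.60) against 6.26% (5.27 to 7.38). The intervals cover counting error of regions within 1 library only, and no test was made.

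**Figure D3:**
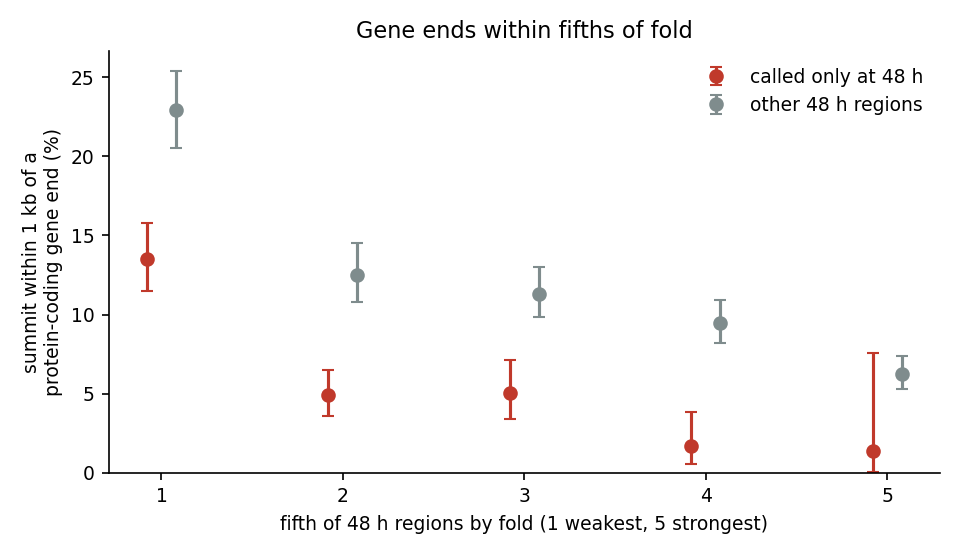
Share of regions (%) with a summit within 1 kb of a protein-coding gene end, in 5 bins of 48 h regions by fold, for the regions called only at 48 h and the other 48 h regions, with exact 95% intervals. The regions called only at 48 h are lower in each bin, and the intervals overlap in the strongest.

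At gene starts the picture was alike. Starts were known for 17492 of the 21900 protein-coding genes, and 148 of the regions (5.12%, 4.35 to 5.99) had a summit within 1 kb of one, against 8.60% (8.0 to 9.23) of the other 48 h regions. Regions called in 2iL and at 48 h but not at 96 h had 6.57% (5.65 to 7.58), which overlapped the interval of the regions called only at 48 h. Of the 148 regions called only at 48 h, 69 lay upstream of the start. The median distance to a start was 43.0 kb, against 34.2 kb. Regions at starts were weaker and stood on a higher background: their median fold was 3.18 over 18.4 reads, against 4.08 over 10.4 reads for the 2740 farther away. The strongest start region, at a fold of 6.49, held 82 reads over 11.8 at a start of Thap4 (chromosome 1, 93731507 to 93732204). Inside a protein-coding gene lay 49.3% (47.5 to 51.1), close to the 47.8% (46.7 to 48.9) of the other 48 h regions. More than 50 kb from any protein-coding gene lay 19.5% (18.1 to 21), against 16.5% (15.7 to 17.4).

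Many regions lay near sites that were called in the other libraries. A 2iL region was within 10 kb of 666 (23.1%, 95% interval 21.5 to 24.6) and within 50 kb of 56.9%, and the median gap was 37.2 kb. For 96 h regions the shares were 15.4% (14.1 to 16.8) and 41.6%, with a median gap of 71.3 kb. The 96 h list holds 7018 regions and the 2iL list 13767, and with lists of equal length by fold the shares within 10 kb were 13.7% for 2iL and 13.6% for 96 h. Regions called only at 96 h had a 2iL region within 10 kb in 24.2% (21.6 to 27.0), and regions called only in 2iL had a 48 h region within 10 kb in 19.9% (19.0 to 21). The first of these intervals overlapped that of the regions called only at 48 h and the second did not. The second is a distance to the 48 h list, which at 10970 regions is shorter than the 2iL list of 13767. These shares were not matched for list length. The 2iL share was 35.5% with an overlap of 50% needed to count as shared. Another region called only at 48 h was within 10 kb of 226 (7.83%). No region of 2iL or 96 h, and no 48 h region that was called elsewhere, lay within 50 kb of 1117 (38.7%, 36.9 to 40.5), and their median fold was 4.23 against 3.95 for the rest.

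**Figure D4:**
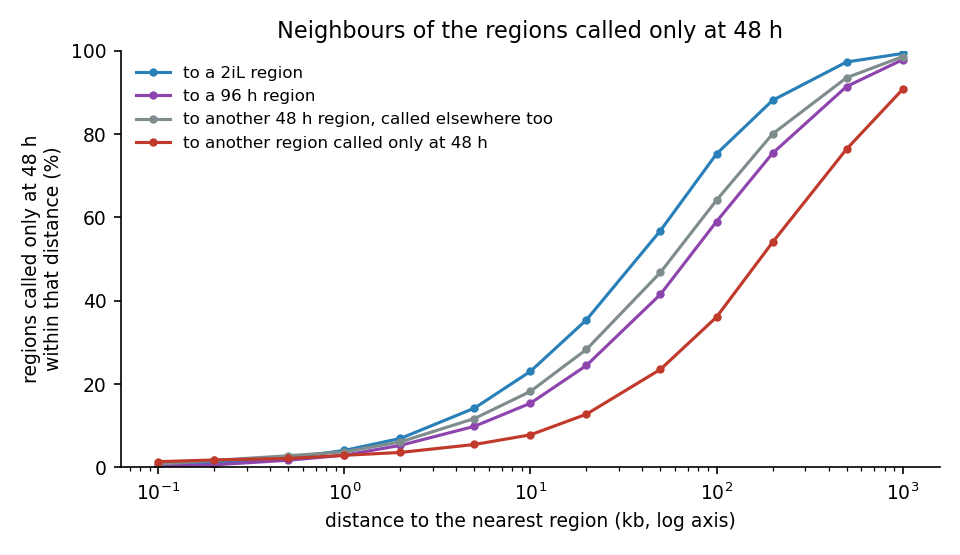
Share of the 2888 regions called only at 48 h (%) that have a neighbour within a given distance (kb, log axis), for neighbours in the 2iL list, in the 96 h list, among the other 48 h regions and among the regions called only at 48 h. Within 10 kb the shares are 23.1% for 2iL regions, 15.4% for 96 h regions and 7.83% for regions of the same class.

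A region called only at 48 h lay within 50 kb of 4218 of the 21900 protein-coding genes (19.3%), and 721 genes had 2 or more. Of the 4218 genes, 1040 (24.7%) had no 2iL region within 50 kb, and 874 had no region of 2iL or 96 h, which is 3.99% of all genes. The genes with most were long. Megf11 (329 kb), an adhesion gene of neurons and glia, had 6 such regions among its 12 regions of 48 h, with 7 in 2iL and 3 at 96 h. Nfib, which encodes a nuclear factor I transcription factor, Tns3, a tensin gene of focal adhesions, Iqgap2 and Clybl had 5 each. Klf12, a gene for a Krüppel-like repressor, had 4 among 5 regions of 48 h, with a highest fold of 8.83 and with 1 region in 2iL and 2 at 96 h. Etl4, D430041D05Rik and Kcnmb2, a gene for a potassium channel subunit, also had 4.

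The 10 genes named by rule had 3 such regions and nothing from the other libraries within 50 kb. Pld5 had the highest fold, 7.37, followed by the mucin gene Muc16 with 7.26. The neighbours Cacna1s, a muscle calcium channel gene, and Kif21b, a kinesin gene, shared a highest fold of 6.93. Slc39a14, which encodes a zinc and iron transporter, reached 6.22, and Rhbdd2 6.02. Morn3 (5.75), Crlf3 (5.01), the origin recognition gene Orc5 (4.90) and the death-associated kinase gene Dapk1 (4.34) were the others. In each of these 10 genes all 3 regions of the 48 h list were called only there. That largely follows from how the genes were picked, since the rule asked for nothing from the other libraries within 50 kb.

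Of the 260 genes in 14 lists chosen for this biology, 66 (25.4%, 95% interval 20.2 to 31.1) had a region called only at 48 h within 50 kb, against 19.3% of all protein-coding genes. The share was above 30% in the core pluripotency, formative, nuclear receptor, energy metabolism and chromatin lists, but also in the tissue-specific control list, with 5 of 16. Of the 14 lists, the formative one had an interval whose lower end lay above 19.3%. List genes also had any 48 h region within 50 kb more often, at 188 of 260 against 10921 of 21900. For 2iL regions it was 206 of 260 against 12252 of 21900. The shares were not matched for this, nor for gene density and gene length.

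**Figure D5:**
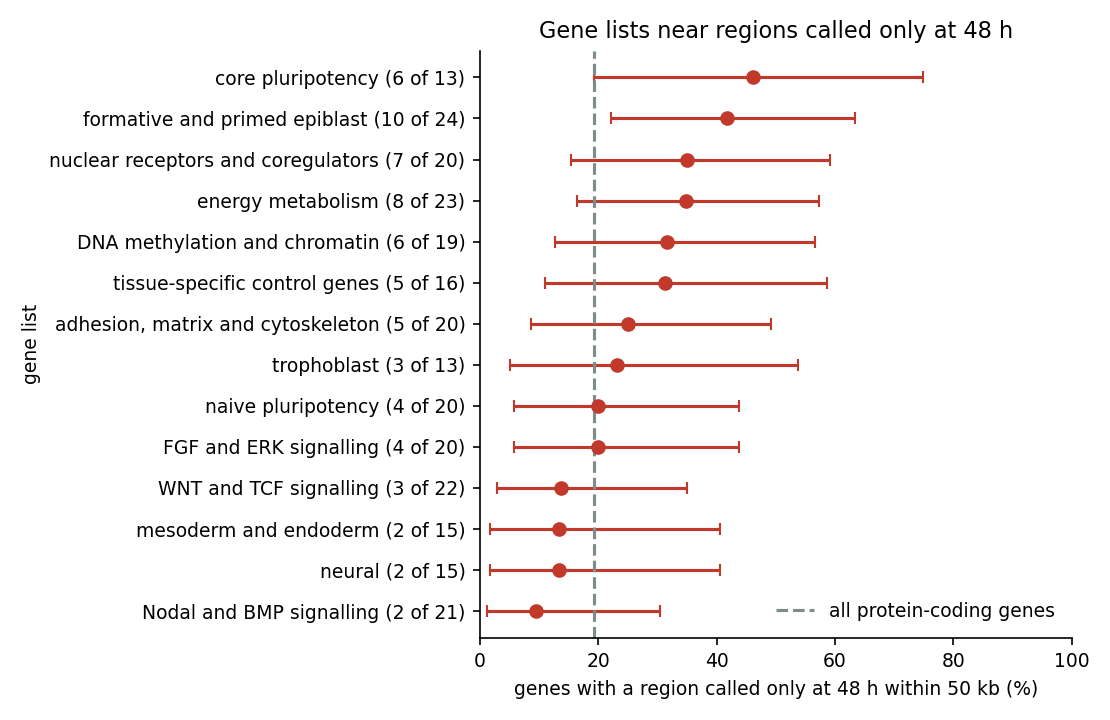
Share of the genes in each list (%) with a region called only at 48 h within 50 kb, with exact 95% intervals and counts in brackets; the dashed line is the 19.3% of all protein-coding genes. The formative and primed epiblast list, with 10 of 24, is the list whose interval lies wholly above the line. List genes also had any 48 h region more often, at 188 of 260 against 10921 of 21900.

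Formative and primed epiblast genes, whose expression was not measured here, had such a region at 10 of 24 (41.7%, 95% interval 22.1 to 63.4). Nr6a1 encodes GCNF, an orphan receptor that represses Pou5f1 during differentiation, and held a region of fold 5.46 with 67 reads over 11.5 (chromosome 2, 38790273 to 38791707). It had 1 region at 96 h and none in 2iL. Foxp1, a forkhead factor gene, had 3, of folds 4.99, 3.82 and 3.45, which made up most of its 4 regions of 48 h. Pou3f1, which encodes OCT6, had 2 at 12.6 and 10.9 kb, of folds 4.87 and 2.87, against 1 region in 2iL and 1 at 96 h.

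Further formative genes had 1 or 2 such regions. Inside Lef1, a factor of WNT signalling, lay 2 of folds 4.14 and 3.36, and Rbpj, the DNA-binding partner of NOTCH, had 1 inside it of fold 3.92 and 1 at 46.0 kb of fold 3.38. Etv5, an ETS factor gene, had 1 at 2.92 kb upstream of its start (fold 4.53, chromosome 16, 22442131 to 22443075), beside 8 regions of 2iL. Otx2, a homeobox gene of the formative state, had 1 at 22.6 kb (fold 4.33) and Sox4 1 upstream of its start (4.39). The methyltransferase gene Dnmt3b had 1 at 42.0 kb (3.08), nearer to Commd7. The region inside Fgf5, a marker of the formative epiblast, lay 1.76 kb downstream of the start (chromosome 5, 98255711 to 98256154) and held 67 reads over a high background of 22.7, a fold of 2.87. It was the only region near Fgf5 in any library.

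The shares of naive and core pluripotency genes had overlapping intervals. Naive genes had such a region at 4 of 20 (95% interval 5.73 to 43.7%), and at 2 with lists of equal length by fold. The strongest lay 6.91 kb from Zfp42, which encodes REX1 (fold 7.74, 84 reads over 9.98, chromosome 8, 43286695 to 43288464), and Zfp42 had 5 regions in each library. Prdm14, a regulator of the naive state, had 1 at 38.8 kb (fold 5.45) and Tfap2c 1 at 32.5 kb (2.56). Klf5 had 2 at 12.3 and 11.3 kb (3.94 and 1.59), the weaker with a q above 0.05. Core genes had one at 6 of 13 (46.2%, 19.2 to 74.9). Sox2, the partner of OCT4, had 1 at 3.65 kb upstream of its start (fold 4.53, chromosome 3, 34645547 to 34646597), and the forkhead factor gene Foxd3 1 at 14.2 kb (5.11). Dppa2 and Dppa4, which are neighbours, shared 1 of fold 3.85, and Dnmt3l had 1 of fold 3.58 at 29.2 kb, nearer to Pfkl.

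The intervals of the 3 signalling lists held the 19.3% of all protein-coding genes. In the FGF and ERK list, 4 of 20 genes had one (95% interval 5.73 to 43.7%; 1 with lists of equal length by fold, 8 with the overlap of 50%): the receptor gene Fgfr1 held a region of fold 5.59, Fos had one 3.86 kb upstream of its start (3.99), and Spry4, a feedback inhibitor, had 2 at 30.4 and 12.3 kb (3.03 and 2.97). The Spry4 region at 30.4 kb lay inside Arhgap26. Spred1, another inhibitor of the pathway, had a region 1.07 kb upstream of its start (fold 3.10, 71 reads over 22.2, chromosome 2, 117119585 to 117120270) and none in 2iL or at 96 h. In the WNT list, 3 of 22 (13.6%, 2.91 to 34.9) had one, and 8 with the overlap of 50%. The receptor gene Fzd7 stood out in fold, with 2 regions of 7.08 (86 reads over 11.3, chromosome 1, 59474922 to 59475988) and 5.67 (118 reads, 59486250 to 59488540), on either side of the gene at 6.83 and 0.647 kb, and it had 1 region at 96 h and none in 2iL. Wnt7b had 2 (4.88 and 4.18), the weaker nearer to 7530416G11Rik, and Tcf7 had 1 (4.33). In the Nodal and BMP list, 2 of 21 (9.52%, 1.17 to 30.4) had one, or 4 with the overlap of 50%: Id1 (4.07) and Acvr1b (3.29). These lay 17.1 and 20.2 kb away, nearer to H13 and Grasp.

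Lineage genes with such regions numbered 2 of 15 for the neural list (13.3%), 2 of 15 for mesoderm and endoderm (13.3%) and 3 of 13 for trophoblast (23.1%), where Wnt7b is listed again. The neural count was 1 when regions within 500 bp were merged or when regions under 1 kb from another list were left out, an alternative chosen after seeing the data. Over all lists, 7 of 260 genes (2.69%) had such regions and none of 2iL or 96 h within 50 kb, below the 3.99% of all protein-coding genes. Lineage genes made up 4 of the 7. But they also had a 2iL region within 50 kb less often than list genes as a whole. It was 8 of 15 neural, 8 of 15 mesoderm and endoderm and 8 of 13 trophoblast genes, against 206 of 260. The 4 of 7 was not matched for this. Pax6, a neural homeobox gene, held a region of fold 4.94 (72 reads over 13.8, chromosome 2, 105692161 to 105693111), and Kdr, the gene of VEGF receptor 2, one of fold 5.69 (68 reads over 11.1, chromosome 5, 75941500 to 75942735). Gata6, an endoderm factor gene, had 2 of folds 4.58 and 3.58 at 2.09 and 12.1 kb, and Gata3 1 of fold 3.28 at 30.4 kb. None of the 4 had a region in 2iL or at 96 h within 50 kb, which is how they were picked. Hand1 had 2 (5.39 and 4.10) beside 3 regions of 2iL, and Sox1 1 at 45.9 kb (3.93).

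Energy metabolism genes had such a region at 8 of 23 (34.8%, 16.4 to 57.3), and at 2 with lists of equal length by fold. Mdh2, the mitochondrial malate dehydrogenase gene, had 2 at 33.9 and 9.84 kb (folds 5.55 and 3.90), both nearer to Srrm3. Inside Hk2, a hexokinase gene, lay 1 of fold 3.54, and inside Idh3a, which encodes a subunit of isocitrate dehydrogenase, 1 of fold 1.97. The Idh3a summit had a q above 0.05, and its region lay 175 bp from a 2iL region. Without summits of such q, an alternative chosen after seeing the data, 7 of the genes had a region. Acadm, a gene of fatty acid oxidation, had 1 at 1.19 kb (2.51). Those of Esrra, Cox5a, Ndufs1 and Uqcrc2 lay 27.7 to 48.2 kb away, nearer to Plcb3, Rpp25, Zdbf2 and Mosmo. All 8 genes had regions in 2iL as well.

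Nuclear receptor and coregulator genes had one at 7 of 20 (35.0%, 15.4 to 59.2). The region 29.5 kb from Nr1d2, which encodes the clock repressor REV-ERBβ, had a fold of 6.49, and its summit lay inside Rpl15. Rxrb, a retinoid X receptor gene, held one of fold 5.08 (chromosome 17, 34036296 to 34037100). The coactivator genes Ncoa2 (4.23) and Ncoa1 (3.79 and 2.99) held 1 and 2, and Nr2c1 (3.96), Rarg (3.54) and Rara (1.42) had 1 each. Those of Nr2c1 and Rarg lay 44.3 and 20.9 kb away, nearest to Ndufa12 and Zfp740. The Rara summit had a q above 0.05, and its region lay 174 bp from a 96 h region. Without summits of such q, an alternative chosen after seeing the data, 6 of these genes had a region. In the chromatin list, 6 of 19 (31.6%) had a region called only at 48 h. Kat6b, a histone acetyltransferase gene, and Jarid2, a partner of Polycomb complex 2, had 4 each, of folds 3.85 to 4.99 and 3.36 to 3.81, among 11 and 13 regions of 48 h. Tet1 had 2 (4.28 and 4.06), Tet3 held 1 at 0.814 kb from its start (3.90), Phc1 had 1 (3.69) and Prdm1 2 (2.69 and 1.59). The weaker Prdm1 summit had a q above 0.05, and its region lay 43.8 kb from the gene, nearer to Atg5, and 102 bp from a 2iL region. Of the Kat6b regions, that of fold 4.67 lay inside Dupd1 and that of fold 4.36 nearer to Adk.

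Adhesion genes had one at 5 of 20 (95% interval 8.66 to 49.1%), and 8 had one with the overlap of 50%. Epcam, the gene of an epithelial adhesion molecule of pluripotent cells, held 1 of fold 4.60, with 56 reads over 11.4 and 1.99 kb downstream of its start (chromosome 17, 87637750 to 87638223), and had no region in 2iL or at 96 h. Cdh1, the E-cadherin gene, had 4 of folds 3.92, 3.55, 3.44 and 3.13, among 10 regions of 48 h, with 4 in 2iL and 6 at 96 h. The Cdh1 region of fold 3.55 lay nearer to Cdh3. Itga9 held 1 of fold 6.60, Rock2 1 of 4.67, and Fn1, the fibronectin gene, had 1 at 16.5 kb (2.91), inside Atic. Control genes of other tissues had one at 5 of 16 (31.2%, 11.0 to 58.7), or 3 with lists of equal length by fold: Myh6 (6.77), Apoa2 (5.60), Myl1 (4.95 and 3.80), Ttn (3.31) and Ckm (2.64). The regions of Myh6, Apoa2 and Ckm lay 32.7, 32.3 and 7.85 kb away, inside Slc22a17, Pcp4l1 and Mark4. The folds near these control genes ran from 2.64 to 6.77.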

How the data were processed

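The authors deposited 1 peak list per antibody library, without read totals. Per the submitters' processing notes, bcl2fastq 2.20.0.422, BWA, SAMtools, Picard and MACS2 were used with build mm10; the sources used here do not give their roles, filters, calling threshold or use of the 3 input libraries, and the inputs were not used here. The deposited fold is a ratio over local background with a pseudocount of 1. The authors' p- and q-values are −log10 values, the deposited score is capped at 1000, and summits are offsets in bp. Summits of 1 interval were joined into a region, which takes the fold of the highest. Fold and p together gave reads and background, whole within 0.05 for 100% of regions; the depth of the libraries is unknown.

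Regions were merged with bedtools 2.31.1, and both steps were tested on simulated data. Shares carry exact Clopper-Pearson 95% intervals (SciPy 1.17.1). Gene spans and promoter windows are RefSeq's; exons were not used. No genome of mm10 was used, so motifs were searched in promoter windows only. Named regions were the 20 strongest, the 5 weakest and 5 either side of the overlap rule. Named genes were list members near a region, the 10 with most and 10 with no other region; sequences and the Thap4 region were chosen after their values were seen. Of the genes named by rule, 2 are not reported here. The regions and lists were chosen with earlier results of these data known.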

Additional observations from a re-analysis of the deposited data

How the results depend on the processing

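The count of 2888 stayed within 1.5 times its value except with lists of equal length by fold (7018 regions each), which left 1690. That setting gave a median fold of 5.17, 4.67% at gene ends, and 13.7% and 13.6% within 10 kb of a 2iL and a 96 h region. The median fold was 4.10 with a q of 1e-05 or less in all lists, 4.09 with it at 48 h only, and 4.12 with an overlap of 50% of both regions. The shares within 10 kb of a 2iL and a 96 h region were 35.5% and 22.6% with that overlap, 20.7% and 13.1% with regions within 500 bp merged, and 19.7% and 12.6% without regions under 1 kb from another list (an alternative chosen after seeing the data). With the stricter q in all lists the 96 h share was 13.7%. Other distances gave 22.8% within 5 kb of a gene end, 14.2% and 56.9% within 5 and 50 kb of a 2iL region, 9.87% and 41.6% of a 96 h region, and 38 list genes within 10 kb. Of 63 values of these summaries, 42 moved by less than their intervals or 1.5 times; of 112 for single lists, 102 did. The cause was not tested. No paired analysis was possible because each condition has 1 library. The motif search around summits was not run.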

Other observations

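By chromosome, the share of 48 h regions called only at 48 h ran from 22.2% on chromosome 16 (82 of 370) to 30.8% on chromosome X (60 of 195, 95% interval 24.4 to 37.8) among chromosomes other than Y, and the intervals of these extremes overlapped. Chromosome Y had 4 regions at 48 h and 3 at 96 h and none in 2iL, and 2 of the 4 were called only at 48 h.

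Of 1005 annotated miRNA hairpins, 44 had a region called only at 48 h within 10 kb. No share of other features or for other regions stands beside this count, so it is a description only. The cluster of Mir23b, Mir27b and Mir24-1 lay 5677 to 6401 bp from a region of fold 5.50 (chromosome 13, 63293902 to 63295098), and Mir770 lay 335 bp from a region of fold 4.98 (chromosome 12, 109563446 to 109564378). Mir34a, a target of p53, lay 4673 bp from one of fold 2.43, and Mir296 lay 6864 bp from one of fold 4.49. Mir1960 lay 1481 bp from the region of fold 10.3 inside Hadhb. These hairpins were chosen after their values were seen.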
